A study of Mus musculus with 12 samples.

Results

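The ribosomal protein coding genes of mouse bone marrow mesenchymal stem cells (MSCs) were followed by RNA sequencing through treatment with transforming growth factor-β1 (TGF-β1) and with supernatants of myeloid-derived suppressor cells (MDSCs). They were taken by name and annotation only, with no measured value. Gene symbols had to begin with Rpl or Rps and a digit, or be Rplp0, Rplp1, Rplp2 or Rpsa, and the annotation had to class the gene as protein coding. Names marked as pseudogenes and the S6 kinases, whose symbols begin with Rps6k, were left out. The rule found 87 of 55401 annotated genes, of which 52 encode proteins named for the large subunit and 33 proteins named for the small subunit. The remaining 2, Rps19bp1 and Rps23rg1, are named after ribosomal proteins but are not subunits.

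The 12 libraries came from 4 groups of 3, all of C57BL/6 MSCs that the study bought from a supplier. They were untreated MSCs, MSCs given TGF-β1 at 5 ng/mL, MSCs given TGF-β1 together with the supernatant of M-MDSCs (the monocytic subtype), and MSCs given TGF-β1 together with the supernatant of G-MDSCs (the granulocytic subtype). The MDSCs had been induced from C57BL/6 bone marrow cells with GM-CSF and IL-6 and sorted by flow cytometry. In the differentiation cultures of the study treatment lasted 24 h, and no other duration is given for the sequenced cells. The sources used here do not say whether the 3 libraries of a group came from separate cultures, so p-values measure the spread between these libraries, which may be technical. No group received a supernatant without TGF-β1. In bulk RNA, fewer cells of a type and less RNA per cell cannot be told apart.

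A eukaryotic ribosome is built of a large subunit, which forms peptide bonds, and a small subunit, which decodes the mRNA, and most of its proteins are present in a single copy. Their mRNAs are among the most abundant in a dividing cell. Nearly all start with a C followed by a run of pyrimidines, the 5′ terminal oligopyrimidine (TOP) motif, through which the mTORC1 kinase pathway and the protein Larp1 control their translation. The mouse genome also carries many processed copies of these genes, most of them pseudogenes, and a read from such a copy can be hard to tell from a read of the parent gene.

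These start sites, ordered from the longest to the shortest run, are shown because TOP mRNAs are known by the run of pyrimidines at their start. Each stretch holds the 10 bases before and the 20 bases from the annotated transcript start (RefSeq, GRCm38.p6), read 5′ to 3′ on the strand of the gene, and capitals mark the longest run of C and T in it.
Rpl27a, chr7:109519185-109519214, plus strand: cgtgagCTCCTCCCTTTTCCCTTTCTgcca
Rpl35, chr2:39005112-39005141, minus strand: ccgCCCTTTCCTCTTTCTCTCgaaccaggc
Rpl15, chr14:18270967-18270996, minus strand: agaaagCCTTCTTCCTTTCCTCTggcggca
Rps6, chr4:86857348-86857377, minus strand: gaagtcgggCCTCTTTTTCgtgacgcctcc
Rplp2, chr7:141447641-141447670, plus strand: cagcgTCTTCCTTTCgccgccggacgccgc
Rps27, chr3:90213629-90213658, minus strand: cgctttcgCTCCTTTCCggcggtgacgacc
Rpl4, chr9:64173377-64173406, plus strand: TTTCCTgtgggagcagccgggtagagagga
Rpl26, chr11:68901556-68901585, plus strand: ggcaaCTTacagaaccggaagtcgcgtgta
Rpl27a had a run of 20 bases, Rpl35 of 18 and Rpl15 of 17, whereas Rpl26 had 3 in the printed stretch. A run of at least 7 bases of C or T lay within 25 bases of an annotated start in 40 of the 67 ribosomal protein genes with a promoter sequence (59.7%). The same held for 8842 of all 27025 genes with such a sequence (32.7%) and for 2653 of the 8364 tested ones (31.7%). The longest run had a median of 8 bases in the ribosomal protein genes and 5 bases in all genes. The other 20 ribosomal protein genes had no matching entry. Only the strand of the gene was searched, and a run within this window is a description of letters around an annotated start, not a measured start site.

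The second set of sequences is shown because reads of 2 genes can be told apart only where the genes differ. The coding sequence of Rps27 (GRCm38 chr3:90212522-90213648, minus strand), 255 bases long, was identical at every base to that of its retrotransposed copy Rps27rt (chr9:114982366-114982739, minus strand).
Rps27 and Rps27rt, coding sequence: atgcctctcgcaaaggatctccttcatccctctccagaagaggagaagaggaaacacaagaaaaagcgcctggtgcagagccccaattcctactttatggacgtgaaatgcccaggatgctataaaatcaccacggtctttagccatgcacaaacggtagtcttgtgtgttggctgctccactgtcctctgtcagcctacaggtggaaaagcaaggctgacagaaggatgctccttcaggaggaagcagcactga
The large subunit gene Rpl30 (chr15:34440505-34443259, minus strand) and its processed pseudogene Rpl30-ps10 (chrX:71803688-71804034, plus strand) differed at 3 of 347 aligned bases, an identity of 99.1%, with 251 bases in a row identical.
Each gene was represented by 1 coding transcript, the first by name, and the shares given here depend on that choice. Of the 87 genes, 72 shared at least 1 stretch of 150 bases, the length of a read, with the transcript of another gene. In 22 of them at least as many of their stretches were shared as were not, and the median over the 87 was 25.4% of a gene's stretches. A named pseudogene existed for 62 of the genes.

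Total counts ran from 73977669 to 84565450 per library, and 19198 to 20448 genes had more than 3 counts. Among the MSC markers, Itgb1 (CD29), Cd44 and Pdgfrb were expressed at 349, 50.5 and 37.4 FPKM (fragments scaled to transcript length and to mapped reads) on average over all libraries. Thy1, Vcam1 and Nt5e were low, at 2.48, 2.13 and 1.08 FPKM, and Eng was at 0.766 FPKM, under the limit used here. Ly6a (Sca-1) differed widely between groups, with means of 245 FPKM in untreated, 16.2 in TGF-β1, 92.5 in M-MDSC supernatant and 66.9 in G-MDSC supernatant libraries. All 7 tested MSC markers were called with TGF-β1 by edgeR, 4 higher and 3 lower (Ly6a, Thy1 and Vcam1). The summed level of 14 myeloid genes was 26.9 to 28.0 FPKM in untreated, 13.6 to 15.8 in TGF-β1, 20.5 to 25.9 in M-MDSC supernatant and 26.0 to 29.9 in G-MDSC supernatant libraries, and most of it was Cd14 in each group. Mpo and Elane had 0 counts in every library. Itgam and Ptprc (CD45) were near 0, at 0.0927 FPKM or less in each library, with means of 0.000421 and 0.000832 FPKM with TGF-β1, 0.031 and 0.00486 with the M-MDSC and 0.0501 and 0.00816 with the G-MDSC supernatant. Some further myeloid genes were also higher with the supernatants. Lyz2 was at a mean of 0.0573 FPKM with TGF-β1, 1.54 with the M-MDSC and 1.87 with the G-MDSC supernatant. Ly6g and Ly6c2 were highest in untreated MSCs, at means of 1.83 and 1.71 FPKM. They were at 0.0681 and 0.045 FPKM with TGF-β1, 0.0619 and 0.148 with the M-MDSC and 0.125 and 0.211 with the G-MDSC supernatant. Camp averaged 0.103 FPKM in untreated MSCs, 0.0455 with TGF-β1, 0.0001 with the M-MDSC and 0.128 with the G-MDSC supernatant. S100a9 and S100a8 were without a count in each library given TGF-β1 alone, and averaged 0.576 and 0.149 FPKM with the M-MDSC and 1.13 and 0.208 FPKM with the G-MDSC supernatant, where all 160 counts of S100a9 were in the third library. Of the 5 tested myeloid genes, 1 rose and 3 fell with TGF-β1, and 2 (Lyz2 and Cd14) rose with each supernatant. The part of these markers in the results below was not tested.

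Ribosomal protein mRNAs were abundant in these MSCs. Of the 87 genes, 82 reached 1 FPKM in at least 3 libraries and were tested, 48 of the large and 33 of the small subunit together with Rps19bp1. Their median level was 249 FPKM, against 6.34 FPKM over all 12016 genes tested, and 66 of them (80.5%) lay above 100 FPKM, as did 479 of all tested genes (3.99%). The highest mean levels were those of Rplp1 (1982 FPKM), a protein of the acidic stalk of the large subunit, and Rps15 (1320.3 FPKM) and Rps4x (1268 FPKM) of the small subunit. Rpl8 and Rpl4 of the large subunit followed at 1192 and 1097 FPKM. Rplp1 measured 1946, 2348 and 2021 FPKM in the untreated libraries, 1791, 1887 and 2015 with TGF-β1, 2050.3, 2009 and 1957 with the M-MDSC supernatant and 1901, 2044 and 1812 with the G-MDSC supernatant, so that the 4 groups overlapped. Rps15 measured 1293, 1467 and 1373 FPKM in untreated MSCs, 1211, 1303 and 1368 with TGF-β1, 1330.1, 1281 and 1312 with the M-MDSC and 1293, 1371 and 1241 with the G-MDSC supernatant, again with overlapping groups. The plot of ranked levels shows each gene with its range over the libraries.

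**Figure D1:**
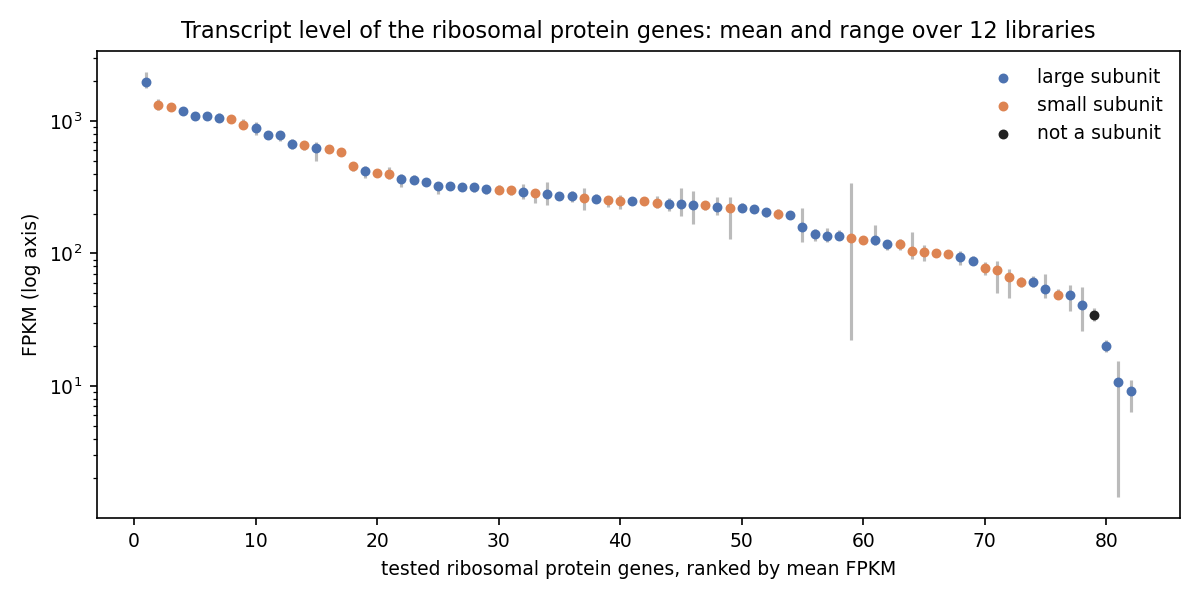
Transcript levels of the 82 tested ribosomal protein genes, ranked by mean FPKM on a logarithmic axis, with the point at the mean and the line from the lowest to the highest of the 12 libraries. The genes run from 1982 FPKM (Rplp1) to 9.15 FPKM (Rpl35a), and the widest lines belong to genes such as Rps27rt and Rpl29.

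At the lower end stood Rpl35a (9.15 FPKM), Rpl29 (10.6 FPKM), Rpl22l1 (20.2 FPKM), Rps19bp1 (34.2 FPKM) and Rpl30 (40.5 FPKM). Named pseudogenes took 80.8% of the counts of Rpl35a and its pseudogenes together, 40.3% for Rpl30 and 8.52% for Rpl29, and Rpl22l1 and Rps19bp1 had no named pseudogene. Outside these 5 genes the share was 95.1% for Rps2 and 91.8% for Rps18. Rpl29 in the third library with the M-MDSC supernatant stood apart, at 143 counts against 863 to 1589 in the other 11. Rpl29 measured 8.96, 9.21 and 11.8 FPKM in untreated MSCs, 12.1, 15.5 and 11.7 with TGF-β1, 10.4, 11.7 and 1.46 with the M-MDSC and 9.53, 11.4 and 13.7 with the G-MDSC supernatant. Whether reads of Rpl29 or of the other low genes were assigned to their copies in these libraries was not tested.

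The 5 genes that were not tested were 4 paralogs or retrogenes and Rpl21. Rpl21, a large subunit gene, had a mean of 0.853 FPKM, and its pseudogenes held 98.7% of the counts of the family. Rpl3l, a paralog of Rpl3 known from muscle, was at 0.0229 FPKM, and Rps23rg1, a retrogene of Rps23, at 0.102 FPKM. Rpl10l and Rpl39l, retrogenes known from testis, had 0 counts in every library.

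The summed ribosomal protein mRNA was a similar share of each transcriptome. It took 4.96, 5.40 and 5.18% of all counts in the untreated libraries and 4.94, 5.14 and 5.46% in the TGF-β1 libraries, so these groups covered nearly the same range. The share was 5.30, 5.26 and 5.27% with the M-MDSC supernatant and 5.23, 5.48 and 4.99% with the G-MDSC supernatant. The means were 5.18 ± 0.221% in untreated, 5.18 ± 0.261% in TGF-β1, 5.28 ± 0.0182% in M-MDSC supernatant and 5.23 ± 0.248% in G-MDSC supernatant libraries (mean ± SD, n = 3), and differences between them were smaller than the spread within 3 of the 4 groups. As a share of summed FPKM, which weights short mRNAs more, the values were 8.60 ± 0.271%, 8.77 ± 0.342%, 8.91 ± 0.161% and 8.76 ± 0.218% in the same order.

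**Figure D2:**
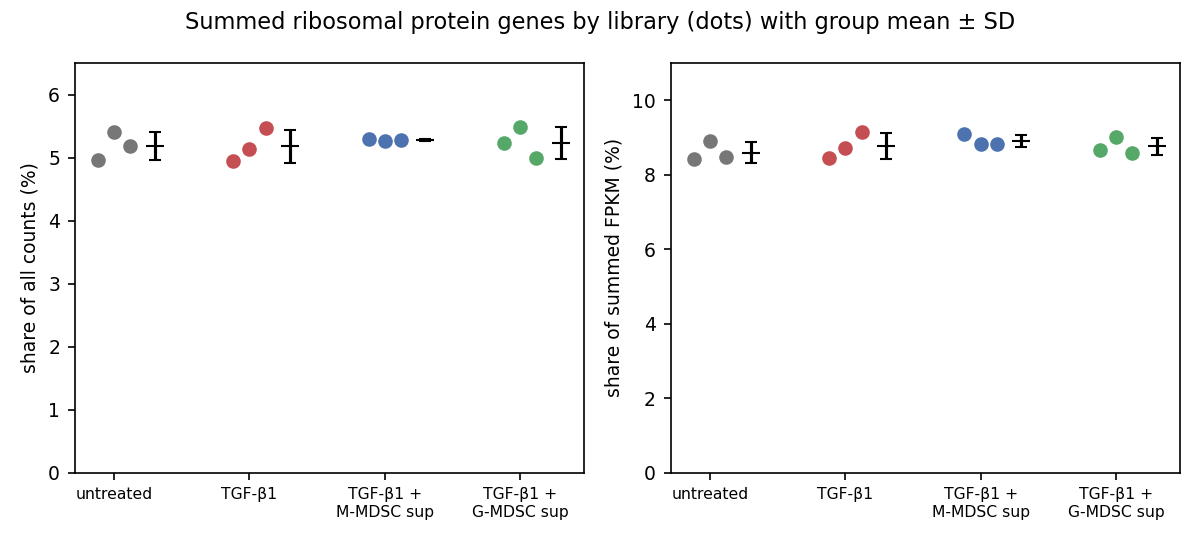
Share of all counts (left) and of summed FPKM (right), in percent, taken by the ribosomal protein genes in each library (dots), with the mean ± SD of each group of 3. All groups overlap, at 4.94 to 5.48% of counts, and the M-MDSC supernatant libraries lie closest together.

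The first comparison asked how the mRNAs of the translation machinery stood in MSCs given TGF-β1, a treatment used by the study to induce a myofibroblast phenotype, against untreated MSCs. Of the 82 ribosomal protein genes, 3 rose (Rpl30, Rpl4 and Rpl35) and 1 fell (Rpl10a) at an adjusted p under 0.05 in edgeR's quasi-likelihood test. Over all 12016 genes 34.0% were called, 16.1% higher and 17.9% lower, so that the 4 called ribosomal protein genes were a smaller share (4.88%) than the background. At an unadjusted p under 0.05, 13 of the 82 passed, against 42.3% of all genes. The log2 fold change was under 0.2 in either direction for 71 of the 82, against 50.6% of all genes, and the 95% confidence interval lay within a 1.5-fold change for 75 of the 82, against 61.1%. The median log2 fold change was 0.07 over the 82 genes and 0.00 over all genes, with 64 of the 82 above 0 and 18 below. With scaling by library totals these values were 0.01 and −0.06, with 45 of the 82 above 0 and 37 below. The median was 0.01 without the first untreated library, 0.03 without the third TGF-β1 library and 0.10 without the first TGF-β1 library. All 3 TGF-β1 libraries lay above all untreated ones for 11 of the 82 genes and below them for 2, together 15.9%, against 46.0% of all genes (21.9% above and 24.1% below). Large and small subunit genes had medians of 0.07 and 0.08. With scaling by library totals alone, and with limma on log2 FPKM, the split of calls turned to 1 higher and 3 lower, as Rpl4 and Rpl35 were no longer called and Rpl26 and Rps28 were called lower.

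Rpl30, a large subunit protein, had the largest log2 rise of the called genes. It measured 27.7, 35.0 and 25.9 FPKM in untreated MSCs and 42.4, 44.8 and 50.0 FPKM with TGF-β1, without overlap, a log2 fold change of 0.69 ± 0.14 (SE, 95% interval 0.37 to 1.01, adjusted p = 0.00361). This value depended on the near-identical pseudogene: with the counts of the Rpl30 pseudogenes added, the log2 fold change was −0.07 ± 0.08 (adjusted p = 0.582).

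Rpl4, whose protein lines the tunnel through which the new peptide leaves, measured 1026, 1058 and 1048 FPKM in untreated MSCs and 1076, 1106 and 1131 FPKM with TGF-β1. All 3 TGF-β1 libraries lay above all untreated ones, and the log2 fold change was small, at 0.14 ± 0.03 (95% interval 0.07 to 0.21, adjusted p = 0.00506). Rpl35, a protein near the exit of the same tunnel, measured 315, 348 and 362 FPKM in untreated MSCs and 365, 386 and 386 FPKM with TGF-β1, a log2 fold change of 0.21 ± 0.06 (95% interval 0.07 to 0.35, adjusted p = 0.0268).

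Rpl10a, the protein of the L1 stalk where the spent tRNA leaves, measured 269, 314 and 295 FPKM in untreated MSCs and 193, 198 and 211 FPKM with TGF-β1. The groups did not overlap, and Rpl10a fell by 0.49 on the log2 scale (SE 0.15, 95% interval −0.82 to −0.16, adjusted p = 0.0266). The levels in the other treated libraries were split, at 269, 197 and 195 FPKM with the M-MDSC and 198, 211 and 281 FPKM with the G-MDSC supernatant, where 1 library of each group stood near the untreated level.

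Rpl30 and Rpl4 stayed called, in the same direction, when any 1 of the 12 libraries was left out. Rpl35 was no longer called without the second or the third TGF-β1 library or without the first or the second untreated library, and Rpl10a without the first or the second TGF-β1 library or without the second or the third untreated library. The number of genes called higher was 9, with none lower, without the first TGF-β1 library, and 2, with 3 lower, without the third TGF-β1 or the first untreated library. Without the second TGF-β1 library or the second or the third untreated library no gene was called lower, and without the third library with the G-MDSC supernatant 6 were called higher.

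**Figure D3:**
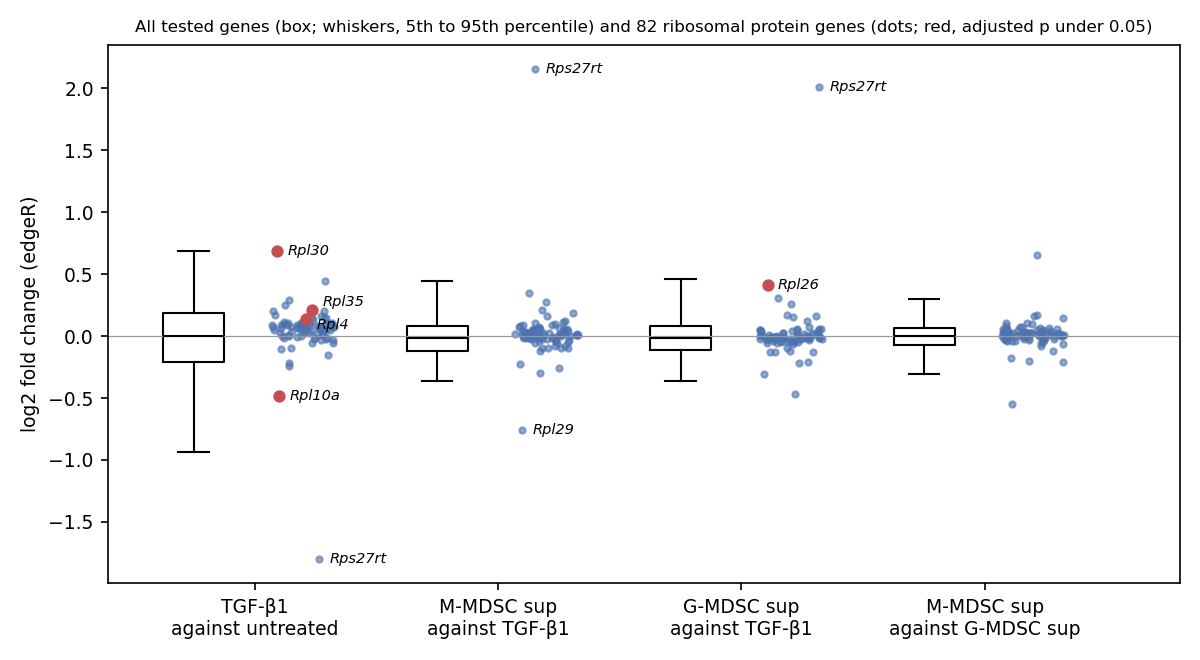
Log2 fold changes from edgeR in the 4 comparisons, with the box and whiskers (5th to 95th percentile) for all 12016 tested genes and dots for the 82 ribosomal protein genes, red where the adjusted p was under 0.05. Most dots lie within 0.2 of 0, Rps27rt lies outside in 3 comparisons, and there are 4 red dots for TGF-β1 against untreated MSCs and 1 for the G-MDSC supernatant against TGF-β1 alone.

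The stalk of the large subunit, which recruits the elongation factors, is made of Rplp0, Rplp1 and Rplp2, and none of them passed even an unadjusted p under 0.05 in any comparison by edgeR. Rplp0 measured 749.7, 826 and 782 FPKM in untreated MSCs, 749, 785 and 838 with TGF-β1, 794, 756 and 809 with the M-MDSC and 782, 834 and 743 with the G-MDSC supernatant. Rplp2 measured 241, 282 and 251 FPKM in untreated MSCs, 246, 249.5 and 262 with TGF-β1, 269, 273 and 269 with the M-MDSC and 255, 273 and 243 with the G-MDSC supernatant. Both genes overlapped between untreated and TGF-β1 libraries, with log2 fold changes of 0.07 ± 0.06 for Rplp0 and 0.03 ± 0.06 for Rplp2, and the value for Rplp1 was −0.09 ± 0.07.

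Rpl5 and Rpl11, which bind the 5S rRNA and can bind Mdm2 when ribosome assembly is disturbed, were not called either, although 1 of them (Rpl5) had an unadjusted p under 0.05 with TGF-β1. Rpl5 measured 209, 212 and 209 FPKM in untreated MSCs and 209, 214 and 224 with TGF-β1, then 211, 223 and 219.9 with the M-MDSC and 218, 227 and 209 with the G-MDSC supernatant. Rpl11 measured 122, 124 and 123 FPKM in untreated MSCs and 116, 119.9 and 131 with TGF-β1, then 128, 165 and 122 with the M-MDSC and 124, 130.0 and 118 with the G-MDSC supernatant, with the second M-MDSC supernatant library above all others. Their log2 fold changes with TGF-β1 were 0.10 ± 0.04 (95% interval 0.01 to 0.18) and 0.05 ± 0.10 (95% interval −0.17 to 0.26).

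Among the 10 proteins of the peptide exit tunnel and its rim, 2 rose with TGF-β1 (Rpl4 and Rpl35) and none fell, 20.0% against 16.1% of all genes called higher and 34.0% called in either direction, and 1 rose with the G-MDSC supernatant (Rpl26), 10.0% against 3.1% called higher and 5.56% in either direction. None of the 7 small subunit proteins along the mRNA path was called in any comparison by edgeR in the fit of all 12 libraries, and 2 had an unadjusted p under 0.05, both with TGF-β1, where 42.3% of all genes did. Rps28, at the mRNA exit, measured 106, 115 and 115 FPKM in untreated MSCs and 98.9, 87.6 and 104 FPKM with TGF-β1, a log2 fold change of −0.15 ± 0.06 (adjusted p = 0.0622), and its TMM-scaled CPM overlapped between the groups. Rps28 and Rpl26, at −0.24 ± 0.09 (adjusted p = 0.0626), were the 2 genes added to those called lower when library totals were used for scaling. Rpl26 was also called lower with the replicate block (adjusted p = 0.0389), by DESeq2 (0.0448) and without the first untreated or the third TGF-β1 library (0.0114 and 0.0315). Rps28 was also called lower without the first untreated or the third TGF-β1 library (adjusted p = 0.0297 and 0.0192), and Rps14 was called without the second untreated or the second TGF-β1 library (adjusted p = 0.0389 and 0.0317).

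Some ribosomal proteins are made as fusions with ubiquitin or a protein like it. Fau, which yields the small subunit protein eS30 and is outside the naming rule, rose with TGF-β1 from 403 ± 19.1 to 434 ± 10.5 FPKM (SD, n = 3), a log2 fold change of 0.16 ± 0.05 (adjusted p = 0.0315). The call of Fau was lost in 6 of 13 alternative settings (adjusted p up to 0.151) and without the first or the third untreated or the second or the third TGF-β1 library, where the adjusted p reached 0.164 and the log2 fold change 0.11. Rps27a measured 243, 250.1 and 247 FPKM in untreated MSCs and 216, 239 and 275 with TGF-β1, with overlapping groups and a log2 fold change of 0.04 ± 0.07.

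Several subunits have a second gene, and none of the 14 tested paralogs was called in any comparison by edgeR in the fit of all 12 libraries, although 2 passed an unadjusted p under 0.05 with TGF-β1 and 2 with each supernatant. Over all genes, 34.0% were called and 42.3% passed the unadjusted p with TGF-β1, 4.78% and 16.7% with the M-MDSC and 5.56% and 17.2% with the G-MDSC supernatant, and 0.125% and 6.33% between the supernatants. In untreated MSCs Rpl22, which replaces or is replaced by Rpl22l1 in the ribosome, was at 57.6 ± 11.1 FPKM against 19.5 ± 1.34 for Rpl22l1 (SD, n = 3), and with TGF-β1 the levels were 47.5 ± 2.05 and 20.0 ± 2.01 FPKM. Rps27l, a paralog known as a p53 target, was at 119 ± 2.58 FPKM in untreated MSCs and 110.0 ± 5.40 with TGF-β1, a log2 fold change of −0.05 ± 0.06. The main genes Rpl3, Rpl7, Rpl10, Rpl36a and Rpl39 were at 223, 322, 269.6, 195 and 135 FPKM on average over all libraries, and Rpl7l1 and Rpl36al at 60.8 and 118 FPKM. Rpl10 and Rpl7 came closest to the threshold with TGF-β1, with log2 fold changes of 0.15 ± 0.05 (adjusted p = 0.0512) and 0.12 ± 0.04 (adjusted p = 0.056). Other fits did call paralogs with TGF-β1. Rpl10 was called with the replicate block (adjusted p = 0.0395), with pseudogenes added (0.037), by DESeq2 (0.0485) and without the first TGF-β1 library (0.0179). Rpl7 was called with pseudogenes added (0.0498) and without the first TGF-β1 library (0.0479) or the third G-MDSC supernatant library (0.0474). With only the 2 groups compared in the fit, Rps27rt (0.0215) and Rps27 (0.0392) were called. Rps4x, the X-linked gene of the small subunit protein, measured 1206, 1274 and 1232 FPKM in untreated and 1199, 1214 and 1371 FPKM in TGF-β1 libraries, with a log2 fold change of 0.09 ± 0.05, and its copy Rps4l, which the annotation does not class as protein coding and which is not counted among the 87, had a mean of 46.9 FPKM. Rps19bp1, a nucleolar protein that binds Rps19, had log2 fold changes of −0.10 ± 0.07, 0.11 ± 0.07 and 0.15 ± 0.07 with TGF-β1 and with the M-MDSC and the G-MDSC supernatant, none of them called.

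The next 2 comparisons set the MDSC supernatants, given together with TGF-β1, against TGF-β1 alone. They share the 3 TGF-β1 libraries, so their values are given side by side and are not independent. With the M-MDSC supernatant none of the 82 genes was called by edgeR, against 4.78% of all genes, 3 passed an unadjusted p under 0.05, against 16.7%, and DESeq2 called 1 (Rpl26). With the G-MDSC supernatant 1 gene, Rpl26, was called, against 5.56% of all genes (3.1% higher), and 5 passed an unadjusted p under 0.05, against 17.2%. Median log2 fold changes over the 82 genes were 0.01 with the M-MDSC and −0.01 with the G-MDSC supernatant, and −0.01 in both comparisons over all genes. With library totals they were 0.04 and 0.01, so the sign with the G-MDSC supernatant depended on the scaling. The signs also turned with single libraries, the M-MDSC value to −0.02 without the first TGF-β1 library and the G-MDSC value to 0.03 without the third TGF-β1 library and to 0.02 without the third G-MDSC supernatant library. The log2 fold change was under 0.2 in either direction for 74 of the 82 in each comparison, against 74.3% and 74.4% of all genes. The 95% interval lay within a 1.5-fold change for 76 and 75 of the 82, against 75.0% of all genes in both.

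Rpl26, a protein at the tunnel exit whose mammalian form also binds the mRNA of p53, measured 37.0, 38.9 and 43.7 FPKM with TGF-β1 alone, 48.8, 52.5 and 52.9 with the M-MDSC supernatant and 53.1, 57.3 and 51.6 with the G-MDSC supernatant. All 6 supernatant libraries lay above the 3 TGF-β1 libraries, and the untreated libraries, at 43.0, 54.3 and 49.4, overlapped with both. The log2 fold change with the G-MDSC supernatant was 0.41 ± 0.09 (95% interval 0.21 to 0.61, adjusted p = 0.0218), and with the M-MDSC supernatant 0.34 ± 0.09 (95% interval 0.15 to 0.54, adjusted p = 0.0573). A call in 1 comparison and not in the other does not show a difference between them, and between the 2 supernatants the log2 fold change of Rpl26 was −0.07 ± 0.09 (M-MDSC against G-MDSC, adjusted p = 0.971). The G-MDSC call was lost without the first or the second TGF-β1 library or without the first or the second G-MDSC supernatant library, with log2 fold changes of 0.36 to 0.48 when any 1 of the 12 libraries was left out. With the M-MDSC supernatant Rpl26 was also called with the replicate block (adjusted p = 0.0385), with library totals (0.0426), by limma at either pseudocount (up to 0.043), by DESeq2 (0.00715) and without the third TGF-β1 library (0.0429) or the first or the second untreated library (0.0266 and 0.0346).

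Rpl30 measured 55.5, 47.7 and 55.4 FPKM with the M-MDSC supernatant and 36.1, 38.0 and 26.9 FPKM with the G-MDSC supernatant, against 42.4, 44.8 and 50.0 with TGF-β1 alone. Its log2 fold change was 0.19 ± 0.14 with the M-MDSC (adjusted p = 0.572) and −0.47 ± 0.14 with the G-MDSC supernatant (adjusted p = 0.101), and 0.65 ± 0.14 between them (95% interval 0.33 to 0.97, adjusted p = 0.191). With the pseudogene counts added, the values against TGF-β1 alone were 0.72 ± 0.08 (adjusted p = 0.000307) and 0.59 ± 0.08 (adjusted p = 0.00138), and 0.13 ± 0.08 between the supernatants (adjusted p = 0.896).

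Between the M-MDSC and the G-MDSC supernatant 0 of the 82 genes were called by edgeR, against 0.125% of all genes, 1 (Rpl30) had an unadjusted p under 0.05, against 6.33%, and DESeq2 called 1 (Rpl30). The median log2 fold change was 0.01 against 0.00 over all genes, and its sign rested on single libraries, at −0.02 without the third and 0.05 without the second G-MDSC supernatant library. Rps28 measured 103, 107 and 103 FPKM with the M-MDSC and 96.9, 98.2 and 96.6 with the G-MDSC supernatant, a log2 fold change of 0.11 ± 0.06 (adjusted p = 0.859). By the rule of the study, which takes genes that more than doubled or halved at p under 0.05 without adjustment, Rps27rt was the 1 ribosomal protein gene selected with each supernatant, none was selected in the other 2 comparisons, and 2.18% (M-MDSC), 2.17% (G-MDSC), 6.74% (TGF-β1 against untreated) and 0.549% (between the supernatants) of all genes were.

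Within 3 of the 4 groups most of the ribosomal protein genes lay on the same side of their group mean in a given library. In the first untreated library 4 of the 82 lay above their group mean and in the second 70, with median deviations of −0.07 and 0.06 on the log2 scale, while the third was at −0.00. In the TGF-β1 group 9, 28 and 77 of the 82 lay above the group mean, with median deviations of −0.07, −0.01 and 0.08. In the G-MDSC supernatant group the counts were 47, 76 and 8, with medians of 0.00, 0.07 and −0.07, whereas the M-MDSC supernatant libraries were even, at 43, 43 and 50 with medians between 0.00 and 0.01. These deviations were as large as the median difference between untreated and TGF-β1 libraries, 0.07. When each of the 3 TGF-β1 libraries was set against the mean of the untreated libraries, that median was −0.01, 0.05 and 0.15. Nuclear genes for the oxidative phosphorylation complexes deviated alike, at −0.07, 0.05 and 0.00 in the untreated and −0.05, 0.01 and 0.05 in the TGF-β1 libraries. The median over all other tested genes stayed within 0.01 of 0, which TMM scaling largely sets in advance by centering most genes in each library.

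**Figure D4:**
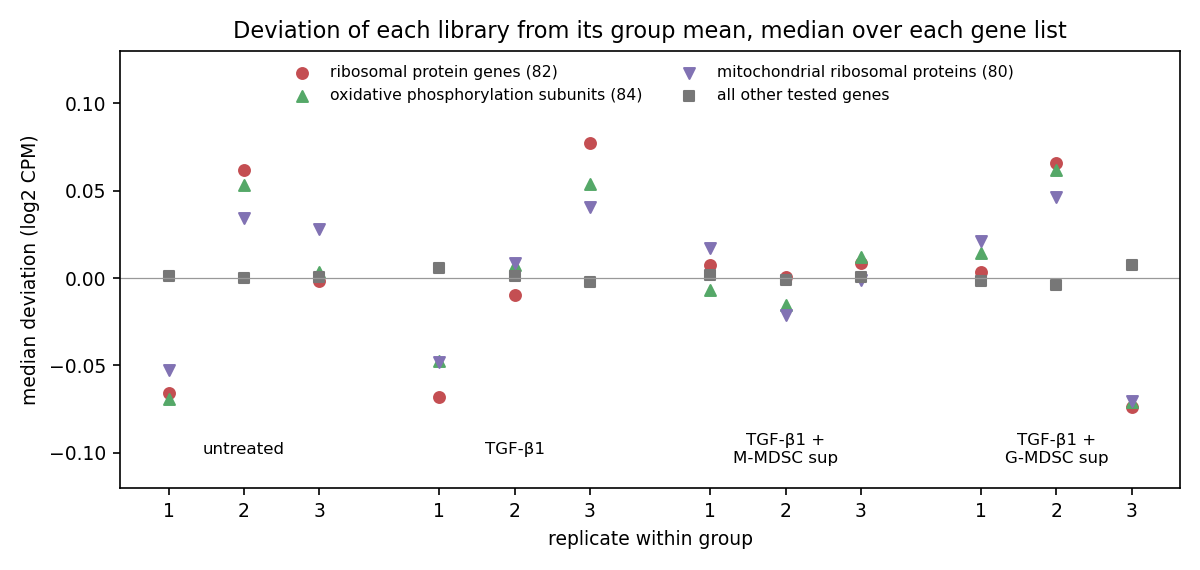
Median deviation of each library from its own group mean (log2 CPM), taken over the ribosomal protein genes and over comparison lists, for the 3 libraries of each group. The ribosomal protein genes run from −0.07 to 0.08. The median over all other tested genes stays near 0 in every library, where TMM scaling largely places it.

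The pooled SD of log2 CPM within groups had a median of 0.0793 over the 82 genes, 0.12 over the 11934 other tested genes and 0.0766 over the 413 of these above 100 FPKM. By shared sequence, the medians lay close together, at 0.0773 over the 12 genes that shared no stretch of 150 bases with another gene, 0.0802 over the 48 with less than 50% of their stretches shared and 0.0803 over the other 22. The highest value was 0.163, 0.849 and 1.19 in these classes. Each of the 12 ribosomal protein genes above 0.2 was in one of the last 2 classes, which together held most of the 82 genes (48 and 22). The highest were Rps27rt (1.19), Rpl29 (0.849), Rps27 (0.357) and Rpl7a (0.296).

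Rps27 and Rps27rt showed how a pair with an identical coding sequence divided its counts. In CPM (counts scaled to library size with TMM factors), Rps27rt was at 63.0, 62.6 and 48.7 in untreated MSCs, 29.1, 9.53 and 11.5 with TGF-β1, 141, 33.0 and 49.5 with the M-MDSC supernatant and 49.5, 10.0 and 142 with the G-MDSC supernatant. Rps27 was at 243, 257 and 269 CPM in untreated MSCs, 279, 300.0 and 308 with TGF-β1, 163, 295 and 263 with the M-MDSC and 260.1, 308 and 151 with the G-MDSC supernatant, and it was lowest in the libraries in which Rps27rt was highest. The sum of both genes was even, at 315 ± 7.38 CPM in untreated, 312 ± 6.52 in TGF-β1, 315 ± 12.6 in M-MDSC supernatant and 307 ± 12.8 in G-MDSC supernatant libraries (SD, n = 3), and all 12 libraries lay between 293 and 328 CPM. The log2 fold changes of Rps27rt were −1.80 ± 0.84 with TGF-β1 (adjusted p = 0.129, but 0.0215 with only those 2 groups in the fit), 2.15 ± 0.85 with the M-MDSC (adjusted p = 0.222) and 2.01 ± 0.84 with the G-MDSC supernatant (adjusted p = 0.246). For the summed pair the same values were −0.01 ± 0.04, 0.01 ± 0.04 and −0.03 ± 0.04. With identical coding sequences, the separate values of these 2 genes are uncertain and the sum is the firmer measure.

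Rpl30-ps10 was at 78.4, 53.6 and 59.9 CPM in untreated MSCs, 2.70, 3.88 and 3.67 CPM with TGF-β1, 55.7, 112 and 94.0 CPM with the M-MDSC supernatant and 117, 140.1 and 126 CPM with the G-MDSC supernatant. The TGF-β1 libraries were thus far below all others. Rpl30 together with its pseudogenes came to 184 ± 10.8 CPM in untreated and 176 ± 12.9 CPM in TGF-β1 libraries, and to 289.6 ± 2.90 and 264 ± 30.2 CPM with the M-MDSC and the G-MDSC supernatant (SD, n = 3). Whether transcripts of the X-linked copy or reads of Rpl30 were counted at Rpl30-ps10 was not tested. Among the other called genes, pseudogenes held 7.57% of the counts of the Rpl10a family, and with these counts added Rpl10a was still called lower with TGF-β1 (−0.44 ± 0.14). The pseudogenes of Rpl26 held 0.401%, and Rpl4 and Rpl35 had no pseudogene counts, so that this addition could not change their values.

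**Figure D5:**
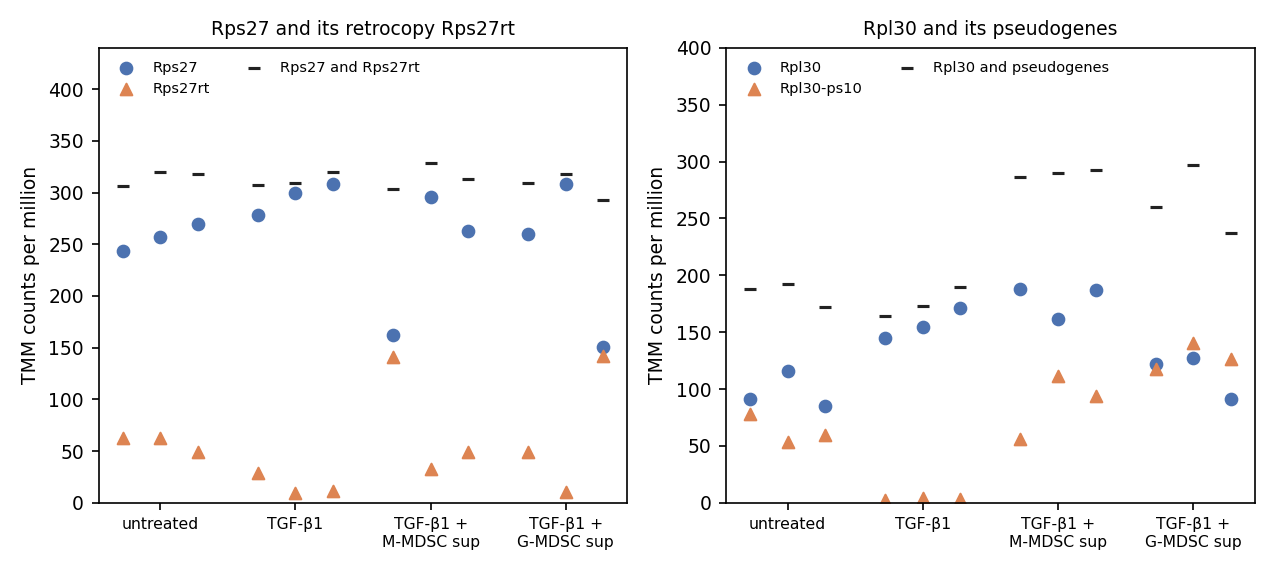
TMM-scaled CPM in each library for Rps27, Rps27rt and their sum, and for Rpl30, Rpl30-ps10 and the sum of Rpl30 with its pseudogenes. The Rps27 sum stays between 293 and 328 CPM while its parts move in opposite directions, and Rpl30-ps10 is lowest in the 3 TGF-β1 libraries.

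Beside its proteins, the ribosome needs factors that assemble it, RNA polymerase I, which transcribes its rRNA, and the factors of translation. Of 35 ribosome assembly factors, 18 rose and 0 fell by edgeR with TGF-β1, 51.4% against 16.1% of all genes called higher, with a median log2 fold change of 0.20 against 0.00 over all genes. Examples were Nolc1 (0.33 ± 0.03, adjusted p = 1.1e-05) and Nop14 (0.37 ± 0.04, adjusted p = 4.35e-05), both of the nucleolus, and Pes1 (0.23 ± 0.03, adjusted p = 7.09e-05), which acts in maturation of the large subunit. Between 12 and 22 of the 35 rose and 0 fell under every alternative setting run.

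Of 22 translation factors and other products of TOP mRNAs, 7 rose and 0 fell, 31.8% against 34.0% of all genes called in either direction and 16.1% called higher, but with scaling by library totals 3 rose and 2 fell. Eef2, which moves the ribosome along the mRNA, had a log2 fold change of 0.23 ± 0.03 (adjusted p = 0.00033), Eef1g 0.22 ± 0.04 (adjusted p = 0.00263) and Eef1a1 0.18 ± 0.04 (adjusted p = 0.00354, not called by limma). Among 16 genes of the mTORC1 pathway and Myc, 4 rose and 2 fell, 37.5% against 34.0% of all genes, and those with the smallest adjusted p were Eif4ebp1, an inhibitor of cap-dependent translation (0.54 ± 0.06, adjusted p = 6.46e-05), Rheb, the GTPase that activates mTORC1 (0.34 ± 0.05, adjusted p = 0.000261), and Larp1 (0.35 ± 0.06, adjusted p = 0.00132). Those that fell were Mtor, the kinase itself (−0.28 ± 0.07, adjusted p = 0.00764), which stayed called under all alternatives run, and Eif4ebp2 (−0.12 ± 0.04, adjusted p = 0.0304). The calls of Eif4ebp2 and of Tsc1, the fourth that rose (0.26 ± 0.09, adjusted p = 0.0444), were lost in 3 and 7 of 13 alternative settings and in 4 and 9 of 12 fits without 1 library. Of 14 genes of RNA polymerase I, 4 rose and 1 fell, 35.7% against the same 34.0%, with Cd3eap at 0.34 ± 0.05 (adjusted p = 0.000458). Of these 5, Cd3eap and Rrn3 stayed called under all alternatives run, whereas the calls of Polr1e, Twistnb and Znrd1 (which fell) were lost in 4, 5 and 4 of 13 alternative settings and in 3, 4 and 9 of 12 fits without 1 library, with adjusted p up to 0.0677, 0.115 and 0.145. Among 7 genes of the p53 response, 1 was called (14.3%), Mdm2, which rose (0.19 ± 0.05, adjusted p = 0.0147). Its call was lost with library totals and with limma at either pseudocount (adjusted p up to 0.0745) and without the second untreated library (0.14, adjusted p = 0.0686).

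For comparison, 6 of 80 tested mitochondrial ribosomal protein genes rose and 9 fell with TGF-β1, 1 of 147 ribosomal protein pseudogenes rose and 1 fell, 1 of 84 oxidative phosphorylation genes rose and 12 fell, and 0 of 12 proliferation genes rose and 5 fell. Called in either direction were thus 18.8%, 1.36%, 15.5% and 41.7% of these lists, against 34.0% of all genes. With the M-MDSC supernatant 0 of the 94 genes of the assembly, translation factor, RNA polymerase I, mTORC1 and p53 lists were called by edgeR, against 4.78% of all genes, 11 had an unadjusted p under 0.05, against 16.7%, DESeq2 called 1, and the smallest adjusted p among them was 0.105 (Nop10, −0.25 ± 0.07). With the G-MDSC supernatant 2 of the 94 were called, against 5.56% of all genes, 15 had an unadjusted p under 0.05, against 17.2%, and DESeq2 called 4. Eif4b, a helper of the initiation helicase, fell (log2 fold change −0.13 ± 0.03, adjusted p = 0.0309), and Cdkn1a, the cell cycle inhibitor p21, rose (0.33 ± 0.07, adjusted p = 0.0201). The call of Eif4b was lost in 6 of 13 alternative settings (adjusted p up to 0.128) and without any 1 of the 3 TGF-β1 libraries, the first or the second G-MDSC supernatant library, the second untreated or the second M-MDSC supernatant library (adjusted p up to 0.126, log2 fold change −0.14 to −0.12). The call of Cdkn1a was lost without the second or the third TGF-β1 library or any 1 of the 3 G-MDSC supernatant libraries (adjusted p up to 0.0807, log2 fold change 0.30 to 0.34).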

How the data were processed

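Poly(A) RNA was made into strand-marked libraries and sequenced in pairs of 150 bases. The authors deposited 1 table of read counts and FPKM values per gene for all 12 libraries. Cutadapt 1.9, HISAT2 2.0.4, StringTie 1.3.4d, edgeR and DESeq2 are named in the submitters' processing notes, with reads aligned to GRCm38. The counting tool is not given in the sources used here. The deposited FPKM values are scaled by the authors to exon length and mapped reads, and a count of 0 was written as 0.0001 FPKM. Of low counts (up to 12), 44.3% were multiples of 4, against 25.0% if evenly spread, so single counts may not be single fragments.

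Genes with at least 1 FPKM in at least 3 libraries were tested on the deposited counts with edgeR 4.0.16 (R 4.3.3), TMM scaling and the quasi-likelihood test in 1 fit of all 12 libraries, with Benjamini-Hochberg adjustment over all 12016 genes. A gene was called at an adjusted p under 0.05. The fit was tested on simulated data. Levels are FPKM, which are comparable between genes, or TMM-scaled CPM. DESeq2 1.42.0 and limma 3.58.1 (on log2 FPKM with pseudocounts of 1 and 0.1) gave alternatives, beside other scalings, filters, a replicate block and leaving out each library. Summing was done with Python 3.11.15 and pandas 2.3.3. Shared stretches were read from GENCODE M21 transcripts, with 1 coding transcript for each ribosomal protein gene, the first by name. Start sites were read from RefSeq GRCm38.p6, and 74 of the 87 genes had the same start and end in GENCODE M21 as in the deposited table. Pseudogene counts were added to a gene by name.

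Named are the genes of the stalk, 5S, ubiquitin fusion and paralog lists (1 listed gene and 1 pair of sequences are not reported here), the 5 highest and 5 lowest tested genes, up to 5 called genes in each direction and comparison, members that are not subunits or were not tested, and up to 3 genes of each related list with the smallest adjusted p. Rps28, Rps14, Rpl7a, Rps2, Rps18, Nop10, Mtor, Eif4ebp2, Tsc1, the RNA polymerase I genes other than Cd3eap and the start sites shown were chosen after their values were seen. The genes and lists were chosen with earlier results of these data known.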

Additional observations from a re-analysis of the deposited data

Results flagged for a closer look

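Rpl30 stood on opposite sides of the TGF-β1 level with the 2 supernatants. All 3 libraries with the M-MDSC supernatant lay above the TGF-β1 mean, by 0.04 to 0.26 on the log2 scale, and all 3 with the G-MDSC supernatant below it, by −0.78 to −0.29. The log2 fold change between the supernatants was 0.65, with an unadjusted p of 0.000981 and an adjusted p of 0.191 in edgeR's test of that difference, which missed the threshold, while DESeq2 called it (adjusted p = 0.00171). With the counts of the Rpl30 pseudogenes added, Rpl30 lay above TGF-β1 alone with both supernatants, by 0.72 (adjusted p = 0.000307) and 0.59 (adjusted p = 0.00138), and the value between them was 0.13 (adjusted p = 0.896).

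Rps28 was placed the same way, with the M-MDSC supernatant libraries 0.07 to 0.12 above and the G-MDSC supernatant libraries −0.02 to −0.01 from the TGF-β1 mean. The log2 fold change between them was 0.11, with an unadjusted p of 0.0911 and an adjusted p of 0.859 in edgeR's test of the difference.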

How the results depend on the processing

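Median log2 fold changes over the ribosomal protein genes, under every alternative that kept all 12 libraries, moved by less than the larger of 2 SDs of the library medians, that of the group and that of its reference group (0.0816 for TGF-β1, 0.0728 for each supernatant). The M-MDSC value, at 0.01 and up to 0.04, moved by more than the SD of its own group, 0.00681, and the G-MDSC value changed sign, from −0.01 to 0.01 with library totals. The counts of called genes are small and moved more. With TGF-β1 against untreated MSCs, 3 genes were called higher and 1 lower, against 1 and 3 with scaling by library totals and with limma at either pseudocount, 0 and 0 by the fold change rule of the study, and 2 lower with DESeq2, with only the groups compared and with a replicate block. The log2 fold change of Rpl30 turned to −0.066 (adjusted p = 0.582) with its pseudogenes added, as that alternative adds counts that were fewest in TGF-β1 libraries. With the M-MDSC supernatant 0 genes were called higher, against 1 with library totals, DESeq2, limma at either pseudocount, the replicate block, the rule of the study and added pseudogenes. With the G-MDSC supernatant 1 was called higher, against 2 with pseudogenes added, and 0 lower, against 1 with DESeq2. Between the supernatants 0 were called higher, against 1 with DESeq2. For these other changes the cause was not tested. Leaving out 1 library gave 2 to 9 higher and 0 to 3 lower for TGF-β1, and 0 to 1 higher with either supernatant, with median log2 fold changes of 0.01 to 0.10 (TGF-β1), −0.02 to 0.04 (M-MDSC), −0.04 to 0.03 (G-MDSC) and −0.02 to 0.05 (between the supernatants).

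Libraries with the same replicate number did not deviate together (mean correlation −0.00384 over 18 pairs, from −0.156 to 0.0778), so the numbers were not taken to pair libraries. The replicate block gave 2 genes called lower with TGF-β1 (Rpl10a and Rpl26) and 1 called higher with the M-MDSC supernatant (Rpl26). The addition of Rps27rt to Rps27 was chosen after seeing the data.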
